A study of Mus musculus with 10 samples.

Results

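The protein kinase C (PKC) family of mouse skin was followed here through 9 genes chosen by symbol: *Prkca* and *Prkcb*, the conventional PKCs; *Prkcd*, *Prkce*, *Prkch* and *Prkcq*, the calcium-independent PKCs; *Prkci* and *Prkcz*, the atypical PKCs; and *Prkd1*, which encodes protein kinase D1. They are 9 of the 24454 genes in the count table, and all of them were among the 15543 genes that passed the filter on low counts. RNA was sequenced from full-thickness back skin of C57BL/6 mice, 5 WT littermate controls and 5 *Zfp36*ΔARE mice (labelled KI, TTP delta ARE), with 1 library per mouse. The *Zfp36*ΔARE mice carry a deletion of an instability motif in the 3′-UTR of *Zfp36* at its own locus in every cell, so the raised TTP of this model is systemic and not limited to a skin cell type. *Zfp36* encodes tristetraprolin (TTP), an RNA-binding protein that speeds the decay of mRNAs with AU-rich elements. Both groups were 7 weeks old when a single dose of 400 nmol DMBA, a mutagen, was put on the shaved back, and from 1 week later both received 10 nmol TPA 2 times a week for up to 20 weeks. The skin sequenced was treated and nontumoral, and no library of untreated skin is in the comparison, so every level below is that of TPA-treated skin and the effect of TPA itself was not measured.

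TPA is a phorbol ester, a lasting mimic of diacylglycerol, the lipid messenger that phospholipase C makes at the membrane. Conventional PKCs need calcium and diacylglycerol, the calcium-independent group needs diacylglycerol only, and both groups bind TPA through their C1 domains. Atypical PKCs do not bind diacylglycerol or TPA and act with PAR3 and PAR6 in epithelial polarity. Protein kinase D1 binds diacylglycerol and phorbol esters itself and is phosphorylated by PKCs. In mouse skin, TPA promotes papillomas, and long exposure to it is known to deplete several PKC proteins, which RNA levels do not show.

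Because TTP acts through AU-rich elements, the annotated 3′-UTR of each member was searched on the strand of the gene for ATTTA and for TATTTAT, the longer motif, which holds ATTTA within it. In GRCm38 with GENCODE M21, 7 of the 9 chosen transcripts held at least 1 ATTTA, against 60.1% of 21685 protein-coding genes, and 4 held TATTTAT, against 25% of those genes. *Prkci* held 9 ATTTA in 2682 bases, *Prkca* 8 in 6129, *Prkce* 3 in 3232, *Prkd1* 3 in 771, *Prkch* 2 in 1127, *Prkcq* 2 in 1097 and *Prkcz* 1 in 723. *Prkcd* held 0 in 513 bases and *Prkcb* 0 in 841 bases. The gene length deposited for *Prkcb*, 8829 bases, is longer than its longest annotated transcript of 3328 bases, so any longer 3′-UTR of *Prkcb* was not searched. The 4 members with TATTTAT each held it 1 time, and these sites are shown because they are the member sequences nearest in form to the element that TTP binds; TATTTAT is in capitals, each site lies in the 3′-UTR within 1 exon, and a match is a description of the letters, not evidence of binding.
*Prkci*, chr3:31050780-31050808, plus strand: gcacagtgattTATTTATttgtttttaat
*Prkca*, chr11:107938550-107938578, minus strand: cctttttttacTATTTATttaataagctg
*Prkch*, chr12:73777665-73777693, plus strand: cagtaactagaTATTTATtgagtgtcaaa
*Prkce*, chr17:86654811-86654839, plus strand: gtccactctctTATTTATtgcattccccc

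The 3 members that passed as higher in *Zfp36*ΔARE skin, *Prkci*, *Prkce* and *Prkch*, are among these 4, and the 1 that passed as lower, *Prkcb*, is not. The 4 members with TATTTAT also had the longest searched 3′-UTRs of the 9, from 1127 to 6129 bases. The median over 21685 protein-coding genes was 778 bases. The motif and the length of the 3′-UTR therefore cannot be told apart here. These are descriptions of 9 genes, and no test was made of them.

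Counts are the authors' fragment counts per gene, without normalization, and totalled 21638369 to 32583189 per library in WT and 19595024 to 36419553 in *Zfp36*ΔARE skin. A normalized count below is the count scaled by edgeR's TMM factors to the mean effective library size of 26680948. *Zfp36* itself averaged 2152 ± 277 normalized counts in WT libraries against 5427 ± 766 in *Zfp36*ΔARE libraries (SD, n = 5), without overlap, and its log2 fold change was 1.33, with a standard error (SE) of 0.119 and an adjusted p of 0.00195 by edgeR's quasi-likelihood test. Each library is 1 mouse, so p-values set the genotype difference against the spread between libraries of different mice. That spread also holds differences in the content of the skin sampled.
The libraries stood apart in more than genotype. Summed normalized counts of 10 hair shaft keratins ran from 2040 to 99000 in WT and from 153000 to 455000 in *Zfp36*ΔARE skin, and WT replicates 3 and 1 had the lowest hair shaft scores, 2.43 and 5.22 (mean log2(CPM + 1)), against 7.70 to 8.14 in the other 3 WT and 8.90 to 10.3 in *Zfp36*ΔARE libraries. Of these 10 keratins, 2 passed as higher and 0 as lower. All 12 skeletal muscle genes were detected, 10 of them lower in *Zfp36*ΔARE skin, and their sum ran from 241000 to 1160000 in WT and from 144000 to 307000 in *Zfp36*ΔARE skin. Of 12 macrophage genes 11 were lower, with sums of 28700 to 54100 against 14500 to 21100. Among 9 T cell genes, 1 was lower (*Thy1*, which dermal stromal cells and nerves also express and which held most of the list's counts), with sums of 4890 to 7010 against 2580 to 3890, and a further 2, *Trac* and *Trbc2*, were not analysed here. Mast cell genes fell in 5 of 6 and rose in 1 (*Kit*, which melanocytes also express), with sums of 5880 to 14900 against 3290 to 4140. Endothelial genes were lower in 6 of 7 (sums of 5370 to 11600 against 3260 to 4270), adipocyte genes in 6 of 8 (44200 to 87100 against 31800 to 41200), fibroblast genes in 4 of 7 (165000 to 350000 against 93600 to 265000), and nerve and Schwann cell genes in 3 of 6 (2880 to 4490 against 2040 to 2540), with 0 higher in each list. Basal keratinocyte genes, the mark of the tissue, were high in every library, with sums of 214000 to 333000 in WT and 183000 to 354000 in *Zfp36*ΔARE skin, and 2 of 7 passed as lower. Differentiating keratinocyte genes passed as higher in 3 (*Ivl*, *Tgm1* and *Tgm3*) and lower in 1 (*Sbsn*) of 8, with sums of 309000 to 460000 and 202000 to 431000. B cell genes summed to 44.2 to 55.3 and 30 to 100 normalized counts, and only 2 of the 5 passed the filter, with 0 called. Counts of Y-linked genes were 3349 to 4262 in *Zfp36*ΔARE replicates 2 to 5 and at most 1 in the other 6 libraries, and the effects of sex and of genotype cannot be told apart. In bulk skin, fewer cells of a type and less RNA per cell cannot be told apart either. The marker genes in parentheses were named after their values were seen.

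Levels of the members were first compared with each other, per length, as CPM per kilobase, the TMM-scaled CPM of a gene divided by its deposited length in kilobases. *Prkcd*, a kinase linked to keratinocyte differentiation and apoptosis, had the highest mean level in WT skin at 47.1 ± 2.51 CPM per kilobase (SD, n = 5), followed by *Prkci* at 35.3 ± 6.52 and *Prkch*, the PKC of the differentiating epidermal layers, at 23.6 ± 2.86. *Prkcq* followed at 10.6 ± 1.94, *Prkca* at 6.23 ± 1.22, *Prkcb* at 3.37 ± 0.998, *Prkce* at 3.1 ± 0.346, *Prkd1* at 1.53 ± 0.383 and *Prkcz* at 1.3 ± 0.207. The library ranges of neighbours in this order overlapped for *Prkci* and *Prkch*, for *Prkca* and *Prkcb*, for *Prkcb* and *Prkce* and for *Prkd1* and *Prkcz*, and were separate for the other neighbours. *Prkci* was above *Prkch* and *Prkca* above *Prkcb* within each of the 5 WT libraries, whereas *Prkcb* was above *Prkce* in only 2 of 5 and *Prkd1* above *Prkcz* in 3 of 5.

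In *Zfp36*ΔARE skin the order of means was *Prkci* (46.5 ± 2.91), *Prkcd* (43.7 ± 2.6), *Prkch* (28.7 ± 1.98), *Prkcq* (12.9 ± 1.58), *Prkca* (7.53 ± 1.55), *Prkce* (3.92 ± 0.513), *Prkcb* (1.93 ± 0.399), *Prkcz* (1.34 ± 0.214) and *Prkd1* (1.19 ± 0.149). In the order of means, the places of *Prkci* and *Prkcd*, of *Prkcb* and *Prkce*, and of *Prkd1* and *Prkcz* were therefore exchanged between the groups. This order was not tested. In *Zfp36*ΔARE skin the ranges of *Prkcb* and *Prkcz* overlapped, as did those of *Prkcz* and *Prkd1*, with *Prkcz* above *Prkd1* in 4 of 5 libraries. *Prkci* was above *Prkcd* in 4 of 5 *Zfp36*ΔARE libraries and in 0 of 5 WT libraries, although the ranges of these genes overlapped in *Zfp36*ΔARE skin. The order of *Prkci* and *Prkcd* depends on the length used: with the longest annotated transcript of each gene as its length, *Prkci* was above *Prkcd* in 2 of 5 *Zfp36*ΔARE libraries and 0 of 5 WT. The same choice moved *Prkcb* most, from 3.37 to 8.95 in WT and from 1.93 to 5.12 in *Zfp36*ΔARE skin, and put it above *Prkce* in 5 of 5 WT and 4 of 5 *Zfp36*ΔARE libraries.
*Prkcd*, *Prkci* and *Prkch* together carried most of the summed per-length level. *Prkcd* held 35.8% of it in WT and 29.6% in *Zfp36*ΔARE skin, *Prkci* 26.6% and 31.5%, and *Prkch* 17.8% and 19.4%. By the deposited lengths the conventional pair held less, with *Prkca* at 4.69% and 5.07% and *Prkcb* at 2.58% and 1.32%. With the longest annotated transcript as length, *Prkcb* ranked 4 of 9 in WT and 6 of 9 in *Zfp36*ΔARE skin, so its share depends on the length used. The sum over the 9 members was 132 ± 7.66 in WT and 148 ± 7.01 in *Zfp36*ΔARE skin.

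**Figure D1:**
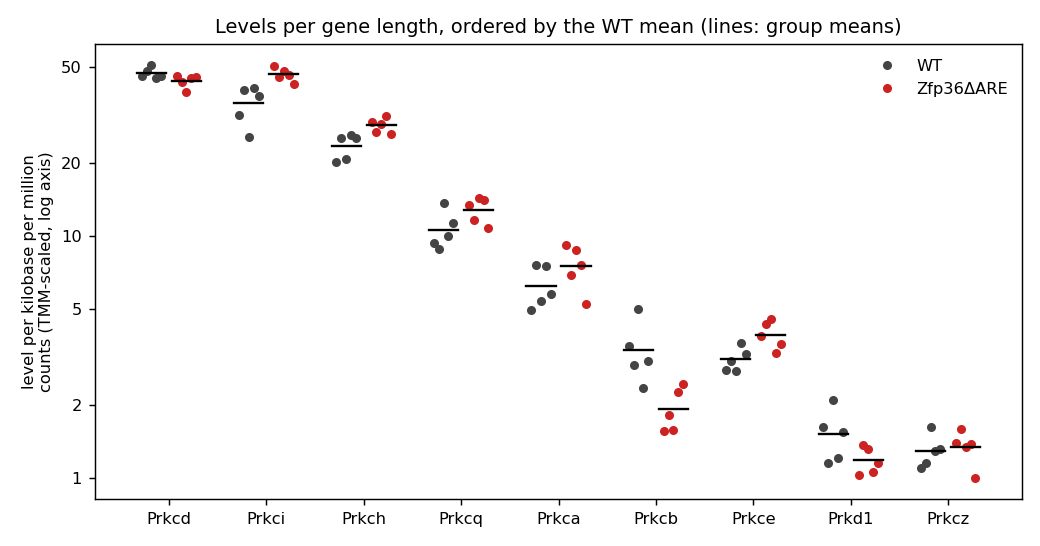
Level of each member as TMM-scaled CPM per kilobase of deposited gene length (vertical, log axis) in each library, WT in grey and *Zfp36*ΔARE in red, with a line at each group mean and genes ordered by the WT mean. *Prkcd*, *Prkci* and *Prkch* lie highest, and *Prkd1* and *Prkcz* lowest, with 5 points per group.

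Between the genotypes, 4 of the 9 members passed an adjusted p under 0.05 by edgeR's quasi-likelihood test, which is 44.4% of them, while 34.3% of all tested genes passed. *Prkci*, *Prkce* and *Prkch* were higher in *Zfp36*ΔARE skin, where 15.3% of all tested genes were, and *Prkcb* was lower, where 19.1% were. No member passed the 2-fold threshold as well, which 8.31% of tested genes did; 4 members had an unadjusted p under 0.05, and DESeq2 also called 4, with 0 past 2-fold. The 5 libraries of one group lay wholly beyond those of the other for 2 members, *Prkch* and *Prkci*, against 23.1% of all tested genes. The median log2 fold change was 0.27 over the 9 members and 0.0076 over all tested genes. The members' counts are thus near the background of a contrast in which a large part of the transcriptome differed.

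**Figure D2:**
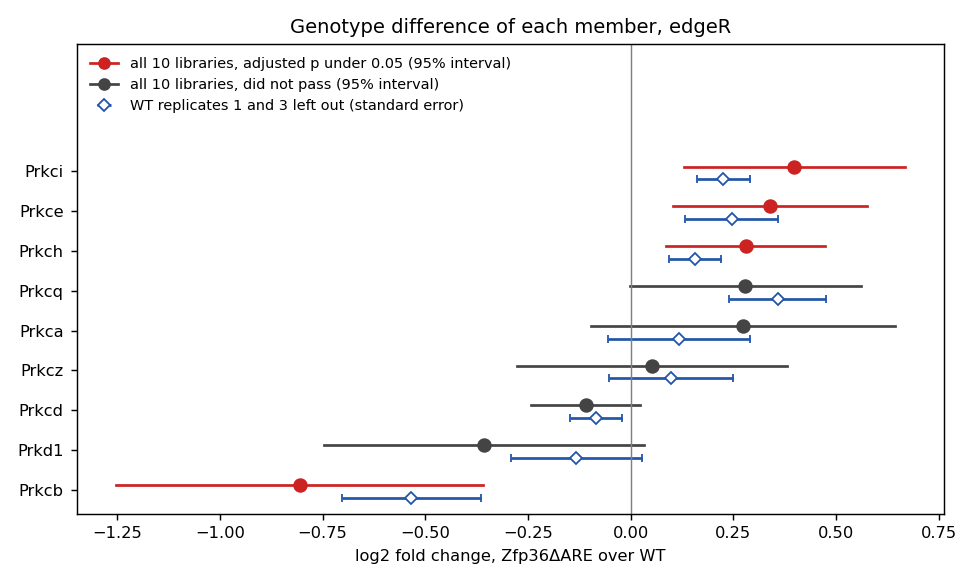
Log2 fold change of each member, *Zfp36*ΔARE over WT (horizontal), with its 95% interval in all 10 libraries as filled points (red where the adjusted p was under 0.05) and, as open diamonds with standard errors, the fold change without WT replicates 1 and 3. *Prkci*, *Prkce* and *Prkch* lie to the right and *Prkcb* to the left, and leaving out the 2 WT libraries brought all 4 closer to 0.

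Among the conventional PKCs, *Prkca* encodes the isoform best known in skin for TPA-driven inflammation (chromosome 11 from 107933387 to 108343928, minus strand). It had 1107, 1691, 1202, 1675 and 1282 normalized counts in WT replicates 1 to 5, and 2043, 1542, 1951, 1698 and 1175 in *Zfp36*ΔARE replicates 1 to 5. The groups overlapped widely, with *Zfp36*ΔARE replicate 5 below 4 of the WT libraries. The log2 fold change was 0.27 (95% interval -0.096 to 0.64, adjusted p = 0.217 by edgeR), an interval that holds 0 as well as a rise larger than the estimate for any member that passed.
*Prkcb* encodes PKC beta, which is abundant in leukocytes (chromosome 7 from 122288751 to 122634402, plus strand). It had 825, 691, 1179, 557 and 721 normalized counts in WT replicates 1 to 5. In *Zfp36*ΔARE replicates 1 to 5 it had 369, 428, 371, 531 and 575. WT replicate 3 was the highest of all libraries, and the groups met only where *Zfp36*ΔARE replicate 5 lay just above WT replicate 4. *Prkcb* fell from 795 ± 235 to 455 ± 93.9 (SD, n = 5), a log2 fold change of -0.81 (SE 0.202, edgeR adjusted p = 0.0156), to 0.572 times the WT level. An exact two-sided permutation test gave p = 0.0159. *Prkcb* passed when each library was left out in turn, in 10 of 10 fits, with adjusted p from 0.00996 to 0.0395.
*Prkcb* was the only member lower by this test. The macrophage score was 6.78, 6.66, 6.60, 6.13 and 5.85 in WT replicates 1 to 5 and 5.14, 4.90, 5.02, 5.53 and 5.43 in *Zfp36*ΔARE replicates 1 to 5, so that these groups did not overlap. With that score as a covariate the log2 fold change of *Prkcb* was -0.082 (adjusted p = 0.999 by edgeR), and over all tested genes 0 then passed. Without WT replicates 1 and 3 it was -0.53 (standard error 0.169, adjusted p = 0.0613). The part of macrophage content in the difference was not tested beyond these values.

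The calcium-independent PKCs hold *Prkcd*, which had the highest mean RNA level per length among the members that bind TPA, and 2 of the members that rose. *Prkcd* (chromosome 14 from 30595354 to 30626210, minus strand) had 3472, 3667, 3885, 3423 and 3485 normalized counts in WT replicates 1 to 5, and 3486, 3285, 2998, 3418 and 3443 in *Zfp36*ΔARE replicates 1 to 5. Its SD relative to its mean was the smallest of the 9 members in both groups, and *Zfp36*ΔARE replicates 2 and 3 and, by little, 4 lay below the WT range. Its log2 fold change was -0.11 (95% interval -0.24 to 0.024, adjusted p = 0.175 by edgeR).
*Prkce*, whose protein PKC epsilon drives squamous carcinoma when overexpressed in mouse epidermis, lies on chromosome 17 from 86167785 to 86657919 on the plus strand, and 6.5% of its exon bases are shared with a second annotated gene on the same strand. It had 467, 508, 464, 602 and 544 normalized counts in WT replicates 1 to 5 and 643, 720, 759, 551 and 596 in *Zfp36*ΔARE replicates 1 to 5. *Zfp36*ΔARE replicates 4 and 5 lay among the upper WT values. *Prkce* rose from 517 ± 57.7 to 654 ± 85.6 (SD, n = 5), a log2 fold change of 0.34 (SE 0.107, edgeR adjusted p = 0.0334), or 1.27-fold, with an exact two-sided permutation p of 0.0238. The call held in 4 of 10 fits that each left out 1 library. It was lost without any one of WT replicates 1, 2 and 3 or *Zfp36*ΔARE replicates 1, 2 and 3, where the adjusted p reached at most 0.0827 and the log2 fold change was at least 0.28.

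*Prkch* encodes PKC eta, found mainly in the suprabasal, differentiating keratinocytes (chromosome 12 from 73584796 to 73778185, plus strand). It had 1971, 2475, 2011, 2536 and 2476 normalized counts in WT replicates 1 to 5 and 2865, 2619, 2814, 3051 and 2578 in *Zfp36*ΔARE replicates 1 to 5. All 5 *Zfp36*ΔARE libraries were above all 5 WT libraries, though the lowest of them, 2578, was close to the highest WT value, 2536. *Prkch* rose from 2294 ± 278 to 2786 ± 193 (SD, n = 5), a log2 fold change of 0.28 (SE 0.0878, edgeR adjusted p = 0.0331), or 1.21-fold, with an exact two-sided permutation p of 0.00794, the smallest that 5 against 5 can give. The call held in 5 of 10 fits that left out 1 library and was lost without WT replicates 1 or 3 or *Zfp36*ΔARE replicates 1, 3 or 4, with adjusted p of up to 0.0716 and log2 fold changes from 0.23. Of 8 differentiating keratinocyte genes, 3 passed as higher and 1 as lower, and their sums overlapped between the groups, as given above. Their part in the difference of *Prkch* was not tested.
*Prkcq* encodes PKC theta, the isoform of T cells and skeletal muscle (chromosome 2 from 11172108 to 11301222, plus strand). It had 824, 779, 1209, 888 and 995 normalized counts in WT replicates 1 to 5 and 1188, 1028, 1276, 1246 and 957 in *Zfp36*ΔARE replicates 1 to 5. WT replicate 3 was high among WT libraries and lay inside the *Zfp36*ΔARE range. The log2 fold change was 0.28 (95% interval -0.0015 to 0.56, adjusted p = 0.108 by edgeR), and without WT replicate 3 it was 0.39 (adjusted p = 0.0243), so this 1 library decided the call. WT replicate 3 also had the highest skeletal muscle score, 11.3 against 9.13 to 10.4 in the other WT libraries and 8.40 to 9.39 in *Zfp36*ΔARE skin, and the highest T cell score, 3.18 against 2.37 to 2.98 in the other 9 libraries. The mean of *Prkcq* was higher in the group with fewer muscle counts. With the muscle score as a covariate its log2 fold change was 0.56 (SE 0.156, edgeR adjusted p = 0.146), in a fit where 7 of all tested genes passed. The part of muscle or T cell content in *Prkcq* was not tested.

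The atypical PKCs do not bind TPA, and the difference between their changes was not tested. *Prkci* encodes PKC iota, the atypical isoform of epithelial polarity (chromosome 3 from 30995747 to 31052959, plus strand). It had 3752, 4788, 3062, 4882 and 4526 normalized counts in WT replicates 1 to 5 and 6004, 5407, 5696, 5516 and 5069 in *Zfp36*ΔARE replicates 1 to 5. All *Zfp36*ΔARE libraries were above all WT libraries, and WT replicates 3 and 1 were lowest. *Prkci* rose from 4202 ± 777 to 5538 ± 346 (SD, n = 5), a log2 fold change of 0.40 (SE 0.122, edgeR adjusted p = 0.0302), or 1.32-fold, with an exact two-sided permutation p of 0.00794. The call held in 6 of 10 fits that left out 1 library and was lost without WT replicate 1 or *Zfp36*ΔARE replicates 1, 2 or 3 (adjusted p up to 0.0709).
*Prkcz*, the other atypical isoform (chromosome 4 from 155260129 to 155361361, minus strand), had 136, 144, 203, 160 and 164 normalized counts in WT replicates 1 to 5 and 173, 197, 168, 171 and 124 in *Zfp36*ΔARE replicates 1 to 5. The groups covered nearly the same range, and the raw counts behind them were only 94 to 231. The log2 fold change was 0.052 (95% interval -0.28 to 0.38, adjusted p = 0.806 by edgeR).
*Prkd1* (chromosome 12 from 50341231 to 50649098, minus strand) had 163, 116, 212, 122 and 156 normalized counts in WT replicates 1 to 5 and 104, 138, 133, 107 and 117 in *Zfp36*ΔARE replicates 1 to 5. Of the WT libraries, 3 lay above every *Zfp36*ΔARE library and the other 2 lay within their range. The log2 fold change was -0.36 (95% interval -0.75 to 0.034, adjusted p = 0.134 by edgeR), from 80 to 177 raw counts per library.

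**Figure D3:**
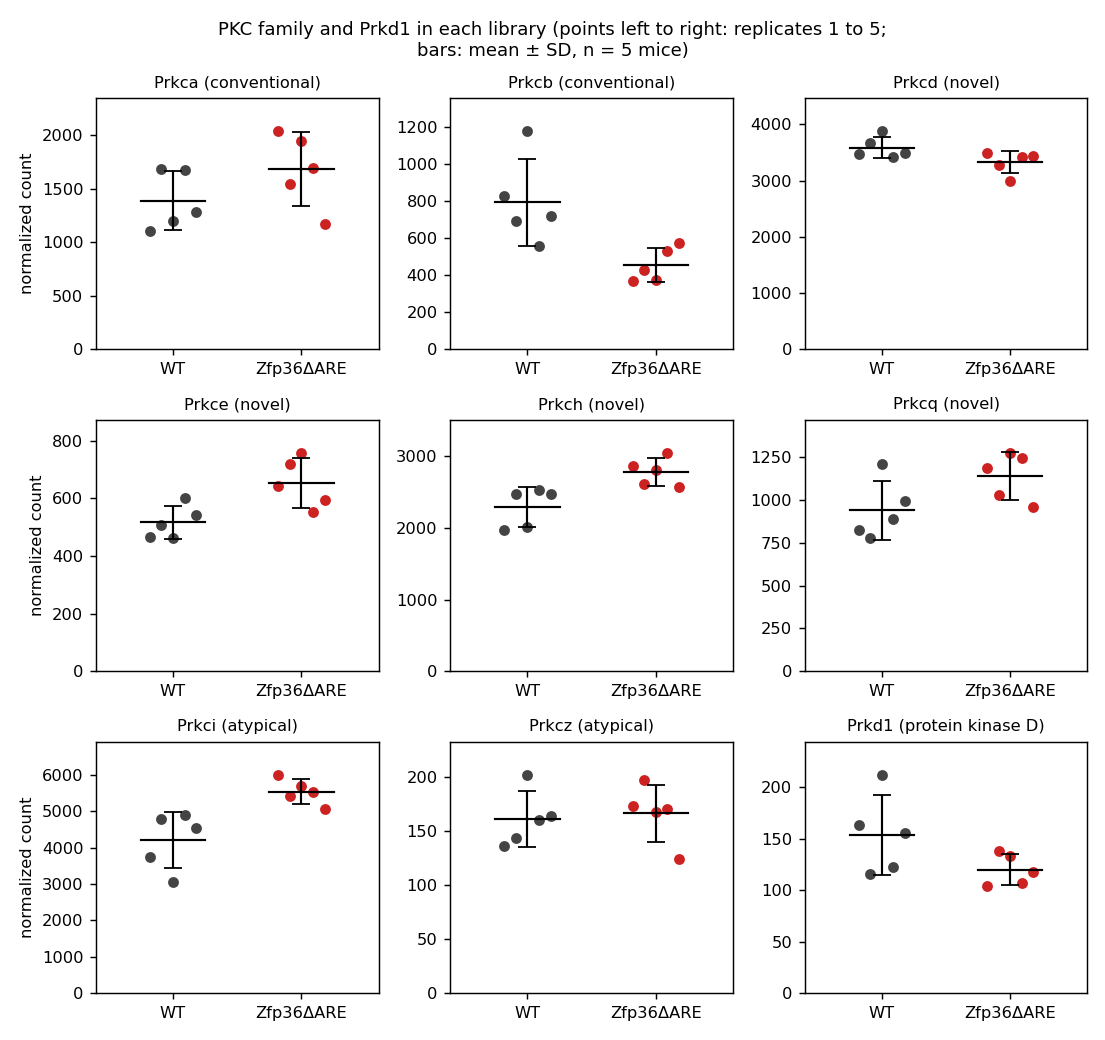
Normalized counts of the 9 members (vertical axis of each panel, from 0) in the 5 WT libraries (grey) and the 5 *Zfp36*ΔARE libraries (red), points in replicate order, with the mean and SD of each group as bars. Only *Prkch* and *Prkci* have all *Zfp36*ΔARE points above all WT points.

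Within the WT group, 6 of the 9 members set WT replicates 1 and 3 apart from the other 3 libraries. These replicates, lowest in hair shaft genes, were both below the other 3 WT libraries in *Prkca*, *Prkce*, *Prkch* and *Prkci*. The same 2 libraries were both above the other 3 in *Prkcb* and *Prkd1*, and mixed for *Prkcd*, *Prkcq* and *Prkcz*. Over all tested genes, both lay below the other 3 in 23.8% and above them in 23.2%. Hair was not all that set these 2 libraries apart: they also had the highest skeletal muscle, T cell, mast cell, adipocyte, endothelial, fibroblast and nerve scores of the WT group and the lowest basal and differentiating keratinocyte scores, while the macrophage score did not separate them. Without these libraries, 3 WT remained against 5 *Zfp36*ΔARE. *Prkci* still passed, with a log2 fold change of 0.23 (SE 0.065, edgeR adjusted p = 0.0455), where all 10 libraries gave 0.40. *Prkce* then had 0.25 (adjusted p = 0.166) and *Prkch* 0.16 (adjusted p = 0.123), and neither passed. With the hair shaft score as a covariate, the log2 fold changes were 0.075 for *Prkci*, 0.15 for *Prkce*, 0.096 for *Prkch* and -0.28 for *Prkcb*, and none passed, nor did they with the muscle score (0.09, 0.31, 0.08 and -0.42). These scores differed between the genotypes, so such fits take out genotype and content together, and they left 30 genes past the threshold over the whole table with the hair score and 7 with the muscle score. With the T cell score only *Prkcb* of the members passed, at -0.46 (adjusted p = 0.0438 by edgeR), and 1598 genes passed over the whole table. Which of these contents goes with the members was not tested.
*Zfp36*ΔARE replicate 1 had 1 Y-linked count, against at least 3349 in the others of its group. For the 4 members that passed, it lay within the range of the other 4 or beyond it on the side away from WT. It had the highest *Prkci* count of all libraries, 6004, and the lowest *Prkcb* count, 369. This is 1 library, and it does not separate sex from genotype.

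**Figure D4:**
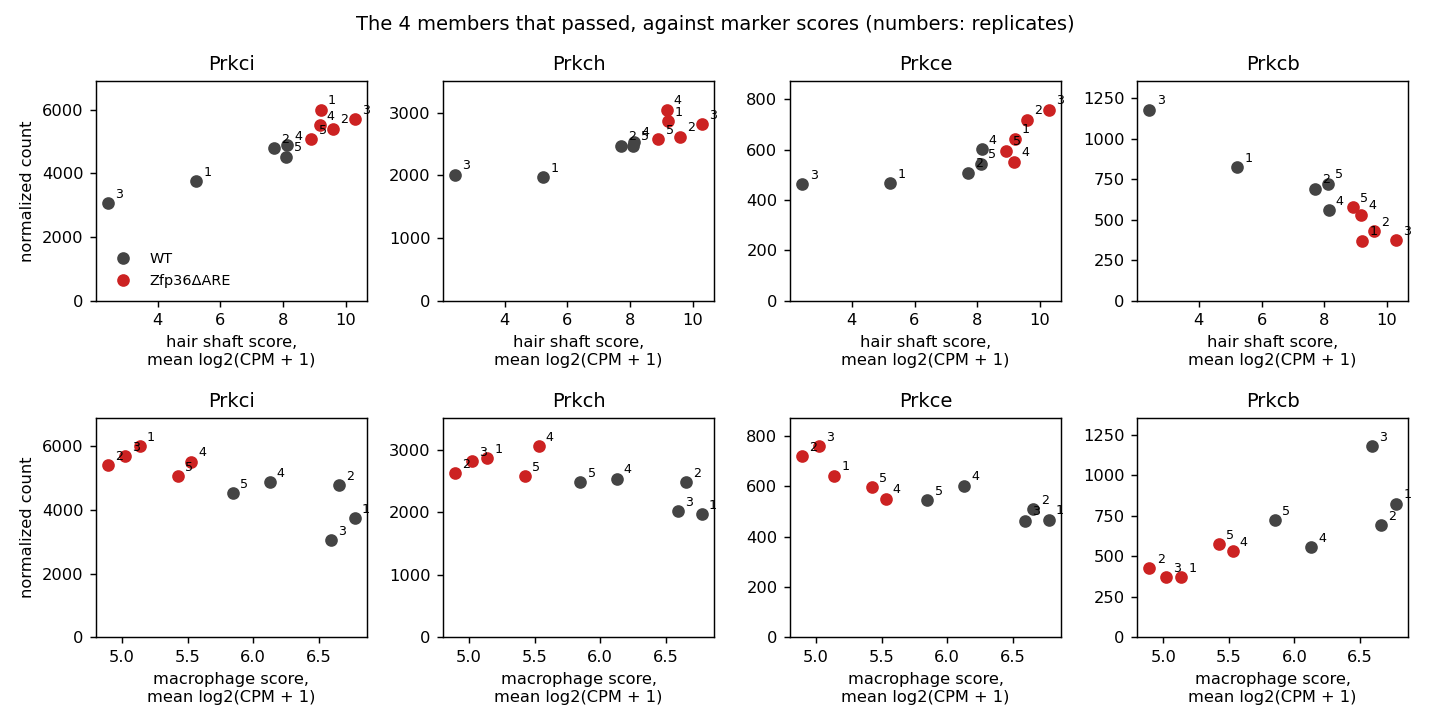
Normalized counts of the 4 members that passed (vertical, from 0) against the hair shaft score (upper row) and the macrophage score (lower row), both as mean log2(CPM + 1), one point per library, WT grey and *Zfp36*ΔARE red, numbered by replicate. WT replicates 3 and 1 lie at the low-hair end with the lowest *Prkci* and the highest *Prkcb* counts, and the groups do not overlap on either score.

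For each member that passed, the genes that varied most like it were sought among 12725 tested genes with a mean of at least 100 normalized counts, by Pearson's correlation of deviations from the genotype means over the 10 libraries. These are descriptions from 10 libraries that share the hair and cell content above. The nearest to *Prkci* were *Crym* (r = 0.995), *Cpm* (r = 0.993) and *Krt26*, an inner root sheath keratin (r = 0.993). The nearest to *Prkch* were *Cnfn*, a cornified envelope gene (r = 0.994), *Crct1*, of the epidermal differentiation complex (r = 0.987), and *Grb7* (r = 0.984). *Prkce* was nearest to *Ubfd1* (r = 0.985), *Thada* (r = 0.952) and *Slc4a1ap* (r = 0.947), and *Prkcb* to *Gphn* (r = 0.973), *Spock2* (r = 0.969) and *Tshz2* (r = 0.967). Spearman's rho lay between 0.927 and 1 for these 12 genes, and r without the 2 libraries farthest from the median of the member was between 0.916 and 0.994. The genes were picked for the highest r in these same libraries, so these values are not separate support for them. The 3 nearest to *Prkci* had log2 fold changes of 1.70, 1.05 and 1.72 between the genotypes, larger than its own 0.40, and did not pass (adjusted p of 0.0855, 0.112 and 0.129 by edgeR).

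The other genes of diacylglycerol and PKC signaling were taken from 8 lists of 71 genes, of which 69 were tested. Of these, 26 passed, 10 higher and 16 lower in *Zfp36*ΔARE skin, which is 37.7% beside the 34.3% of all tested genes, and their median log2 fold change was -0.12. Past 2-fold as well were 5, where 8.31% of all tested genes were. Without WT replicates 1 and 3, 13 passed, and 2504 of 15724 genes over the whole table. For the counts per list below, 15.3% of all tested genes passed as higher and 19.1% as lower.

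Upstream, the phospholipases C make the diacylglycerol that TPA mimics. Of 12, 4 were lower and 2 higher, with a median log2 fold change of -0.21. *Plcb1* ranged from 168 to 295 normalized counts in WT libraries and from 56.1 to 93.3 in *Zfp36*ΔARE libraries, a log2 fold change of -1.35 (SE 0.187, edgeR adjusted p = 0.004). *Plcb2*, a form of blood cells, fell by 0.99 and *Plcb4* by 0.73 on the log2 scale. *Plcb3*, with the most counts of the list, averaged 4048 in WT against 4426 in *Zfp36*ΔARE libraries and did not pass. Diacylglycerol kinases, which end the signal, were lower in 2 of 8 tested and higher in 0, with a median of 0.07. Neither call was stable when libraries were left out 1 at a time. Without WT replicates 3, 4 or 5 or *Zfp36*ΔARE replicates 3 or 4, 0 passed. Without WT replicate 2 or *Zfp36*ΔARE replicates 1, 2 or 5, 1 passed. Of them, *Dgke* fell by 0.29 on the log2 scale (417 ± 41.9 to 342 ± 36.7), with an adjusted p of 0.0459 by edgeR, close to the threshold. *Dgkz*, with the most counts, had 3946 and 4224 and did not pass.

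At the receptor level, PKC is not the only target of TPA. Among the other diacylglycerol and phorbol ester receptors 3 of 8 tested were lower and 1 higher, with a median log2 fold change of -0.66. *Rasgrp4*, a Ras activator of mast cells, fell from 470 ± 115 to 211 ± 15.7 (SD, n = 5), with WT values of 347 to 642 and *Zfp36*ΔARE values of 197 to 235, a log2 fold change of -1.16 (SE 0.155, edgeR adjusted p = 0.004). *Rasgrp3*, a Ras and Rap activator, fell by 1.05 on the log2 scale, from 277 to 708 in WT to 175 to 233 in *Zfp36*ΔARE skin. *Chn2*, a Rac GTPase-activating protein, rose by 0.82, from 361 ± 110 to 638 ± 112. *Unc13b*, with the most counts, had 747 and 630 and did not pass. Mast cell genes moved with *Rasgrp4*, 5 of 6 lower as given above, and their part was not tested. Of the PKC and PKD relatives 2 of 6 were lower and 0 higher, and *Prkd3*, a protein kinase D, fell from 1411 ± 161 to 1107 ± 107 (SD, n = 5). *Pkn2*, with the most counts, had 1749 and 1875 and did not pass.

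The genes that mature, anchor and switch off PKC mostly did not pass, with 1 of 12 higher, 1 lower and a median log2 fold change of 0.0077, and 1 call in all without *Zfp36*ΔARE replicate 3. *Rack1*, the scaffold named as a receptor for activated PKC and also a component of the ribosome, rose from 28172 ± 1799 to 34323 ± 1804 with no overlap (log2 fold change 0.29, adjusted p = 0.02 by edgeR). *Akap12*, an anchoring protein and PKC substrate, fell by 0.87 on the log2 scale, from 950 ± 300 to 518 ± 98.2, and also did not overlap. Substrates were lower in 3 of 10 and higher in 1. *Add2* rose by 0.84 (153 ± 32.2 to 274 ± 71.3), *Add3* fell by 0.73 (2396 ± 483 to 1445 ± 158), and *Dst*, with the most counts, fell by 0.40 (15421 ± 2576 to 11707 ± 798). Of the CARD-BCL10-MALT1 complex, which links PKC to NF-kB, 1 of 5 passed: *Card10*, the form of nonlymphoid cells, fell by 0.55 (1304 ± 278 to 891 ± 113), and 2 of the complex passed without WT replicate 2 or *Zfp36*ΔARE replicate 5. *Card14*, the form of keratinocytes and the one with the most counts, had 1656 and 1295 and did not pass (adjusted p = 0.063 by edgeR).

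The polarity partners of the atypical PKCs passed in 5 of 8 as higher and in 0 as lower, with a median log2 fold change of 0.29. Of all tested genes 15.3% passed as higher. Whether the partners and *Prkci* changed together was not tested. *Pard6b*, which binds the atypical PKCs directly, had 279, 602, 325, 675 and 577 normalized counts in WT replicates 1 to 5. In *Zfp36*ΔARE replicates 1 to 5 it had 1270, 1028, 1222, 1118 and 757. WT replicates 1 and 3 were lowest here too, and the groups did not overlap. Its log2 fold change was 1.13 (SE 0.249, edgeR adjusted p = 0.01). The number of partners that passed was 3 of 8 when WT replicates 1 and 3 were left out, where 1080 of 15724 tested genes passed as higher. *Llgl2*, an atypical PKC substrate, rose by 0.59 (1282 ± 184 to 1933 ± 203) and *Pard3b* by 0.45 (532 ± 84.4 to 726 ± 76.2). *Sqstm1*, the scaffold p62 and the partner with the most counts, had 5516 and 4552 and did not pass (adjusted p = 0.055 by edgeR). With the hair shaft score as a covariate, 0 of the 8 partners passed and the median was 0.23.

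**Figure D5:**
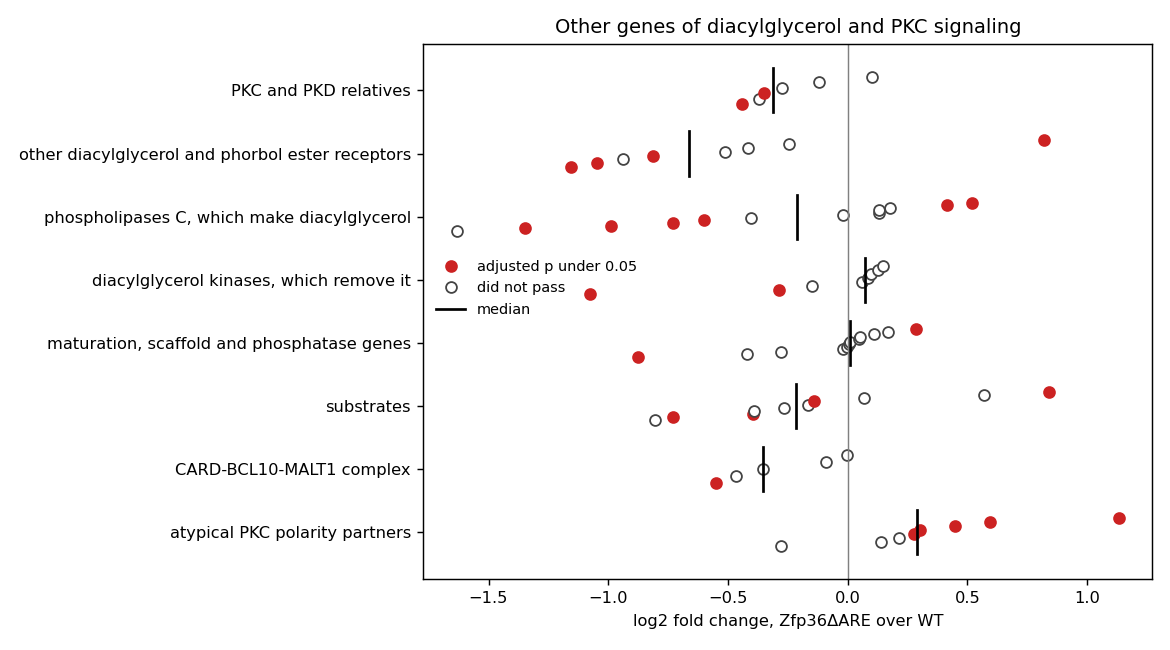
Log2 fold change, *Zfp36*ΔARE over WT (horizontal), of the 69 tested genes of 8 lists around PKC signaling (vertical), filled red where the adjusted p was under 0.05 and open where it was not, with a bar at the median of each list. Polarity partners lie mostly right of 0 (5 of 8 passed as higher), and the genes listed as other phorbol ester receptors mostly left (3 of 8 passed as lower). Over all tested genes, 15.3% passed as higher and 19.1% as lower.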

How the data were processed

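Skin of 5 WT and 5 *Zfp36*ΔARE mice was sequenced as paired-end libraries. Per the authors, reads of mean quality below 20 were dropped and the others aligned to mm10 with STAR 2.5.2b, and fragments were counted per gene with featureCounts of Subread 1.5.0-p1. The authors deposited raw counts, with a gene length in bases beside them. Strand and the handling of multiply matching fragments are not given in the sources used here. The authors tested their counts with DESeq2.

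The deposited counts of 15543 of 24454 genes passed filterByExpr and were tested with edgeR 4.0.16 in R 4.3.3 (TMM scaling, robust quasi-likelihood fit, genotype as the only term, Benjamini-Hochberg adjustment over all tested genes). The median biological coefficient of variation was 14.9%. Of the counts, 7.38e-05% lay in 2 rows without a gene name, which were left out. The procedure was tested on simulated data. Single members were also compared by exact two-sided permutation of the libraries. Gene positions and 3′-UTRs came from GENCODE M21 on GRCm38.

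The 9 members and the lists were chosen with earlier results of these data known. Named genes were the members, *Zfp36*, from each list the gene with the most counts and up to 3 that passed with the largest fold change and a mean of at least 50 normalized counts, and the 3 genes most correlated with each member that passed. One gene that this rule names is not reported here. Marker scores are mean log2(CPM + 1) values computed here from the counts. Alternatives were DESeq2 1.42.0, limma-voom (limma 3.58.1), other scaling, filters and dispersions, a replicate block, marker scores as covariates and leaving out libraries.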

Additional observations from a re-analysis of the deposited data

Results flagged for a closer look

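Per-library values of 34 genes, the members among them, were examined in each group of 5 for a library whose gap to its nearest neighbour was over 0.71 of the whole range of the group, Dixon's critical value. Of the 68 groups 3 were beyond it, where chance gives about 3.4, and 0 of them belonged to a member. WT replicate 3 stood apart in *Rasgrp3*, with 708 normalized counts against 277 to 391 in the other WT libraries (ratio of gap to range 0.734). It stood apart in *Dst* too, with 20000 against 13900 to 14700 (ratio 0.869). *Zfp36*ΔARE replicate 4 stood apart in *Plcb1*, with 56.1 against 87.8 to 93.3 (ratio 0.852).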

How the results depend on the processing

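The direction of all 9 members held under DESeq2, limma-voom, DESeq2's size factors in edgeR, non-robust dispersions, upper-quartile scaling, and with the low-count filter dropped or set to 10 counts in each library, and the same 4 members passed under each. Of the 4 calls, that of *Prkcb* held in 10 of 10 fits that left out 1 library, and those of *Prkci*, *Prkch* and *Prkce* in 6, 5 and 4. The number of members called ranged from 1 (without WT replicate 1 or *Zfp36*ΔARE replicates 1 or 3) to 4 over these fits. Calls over all tested genes also fell there, from 5335 with all 10 libraries. They were 3454 without WT replicate 1, 4048 without *Zfp36*ΔARE replicate 1 and 3506 without *Zfp36*ΔARE replicate 3. The log2 fold changes ranged from 0.28 to 0.40 for *Prkce*, from 0.23 to 0.32 for *Prkch*, from 0.30 to 0.46 for *Prkci*, from 0.22 to 0.39 for *Prkcq* and from -0.016 to 0.14 for *Prkcz*, which turned negative when WT replicate 1 (-0.0039) or *Zfp36*ΔARE replicate 2 (-0.016) was left out. *Prkcq* passed without WT replicate 3 (0.39, adjusted p = 0.0243 by edgeR).
Replicate numbers are shared by the groups in the labels. The deviations of same-numbered libraries from their group means correlated at -0.107, -0.192, -0.144, 0.0851 and -0.164. Of the WT libraries, 0 correlated best with the *Zfp36*ΔARE library of their own number. These correlations gave no sign of pairing, but with 5 libraries per group they cannot exclude that the numbers pair the mice. With the replicate number as a block, 0 members passed, and 15 pathway genes against 26 without it, at log2 fold changes of -0.78 for *Prkcb*, 0.34 for *Prkce*, 0.29 for *Prkch* and 0.42 for *Prkci*, and 2740 of all tested genes passed against 5335 without it.
Without WT replicates 1 and 3, 1 member and 13 pathway genes passed, with -0.53 for *Prkcb*, 0.25 for *Prkce* and 0.16 for *Prkch*, and 2504 of all genes tested then. With the hair shaft score as a covariate 0 members and 1 pathway gene passed (*Prkcb* -0.28, *Prkce* 0.15, *Prkch* 0.096, *Prkci* 0.075). With the skeletal muscle score 0 members and 0 pathway genes passed (*Prkcb* -0.42, *Prkce* 0.31, *Prkch* 0.0803, *Prkci* 0.09), and *Prkd1* turned to 0.17. With the T cell score 1 member, 7 pathway genes and 1598 of all 15543 genes passed (*Prkce* 0.17, *Prkch* 0.21, *Prkci* 0.26). With the macrophage score 0 members, 0 pathway genes and 0 of all 15543 genes passed (*Prkcb* -0.082, *Prkch* 0.096, *Prkci* 0.087), and the sign changed for *Prkca* (-0.013), *Prkcd* (0.031), *Prkce* (-0.17) and *Prkcz* (-0.25). The cause of these changes was not tested. The per-length level of *Prkcb* over all libraries was 2.65 by the deposited length and 7.04 by its longest annotated transcript. Low counts limit *Prkcz* and *Prkd1*, whose intervals reach from -0.28 to 0.38 and from -0.75 to 0.034.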
